A study of Mus musculus with 3 samples.

Results

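Blood endothelial cells were singled out from day 5 skin wounds of mice by their transcripts. They were barcodes on which 250 or more genes were detected and mitochondrial transcripts made up no more than 10% of UMIs (unique molecular identifiers, 1 per captured probe pair) that held at least 4 UMIs of Pecam1, Egfl7, Esam, Cdh5, Mecom and Shank3 together. A member also held no UMI of the lymphatic genes Prox1 and Mmrn1, at most 1 UMI of the leukocyte gene Ptprc and at most 3 UMIs of Col1a1 and Krt14 together. The rule kept 1185 of 26953 filtered barcodes over 3 libraries. The members were chosen by these counts, so the levels of those genes are a description of the rule and not a finding.

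The libraries came from female C57BL/6J mice on postnatal day 50 with a 5 mm full-thickness wound on the back, held open by a splint. In the AN-GelMA group the wound received 20 µL of gelatin methacryloyl (GelMA), a gelatin that sets to a hydrogel under ultraviolet light, mixed with apoptotic neutrophils. In the GelMA group it received the same volume of gel without cells, and in the untreated group, titled Sham, neither. Both gel groups are listed with 1 min of ultraviolet light, and the untreated group has no such entry. The tissue was cut with a 2 mm margin, so each library mixed the wound bed with the skin around it, and it was fixed before dissociation and probed with a 10x Flex kit. Each group was 1 library, and the number of mice behind it is not stated, so no difference has a replicate check and the treatment, the animal and the piece of skin cannot be told apart. Against untreated skin, the gel and the ultraviolet light cannot be told apart either.

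The endothelium lines every blood vessel, and its cells differ along the vascular tree. Arterial cells carry Notch signalling and the ephrin ligand Efnb2, venous cells the nuclear receptor Nr2f2 and the selectins that catch leukocytes, and capillary cells the genes of fatty acid uptake. In a healing wound, VEGF draws out tip cells that lead new sprouts, digest and relay basement membrane, and release Angpt2 and Esm1. Flow through a vessel that has opened induces the transcription factors Klf2 and Klf4, which hold the endothelium at rest.

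Members made up 3.60% of filtered barcodes in AN-GelMA (346 cells, exact 95% binomial interval 3.24 to 3.99), 3.95% in GelMA (446 cells, 3.59 to 4.32) and 6.51% in untreated skin (393 cells, 5.90 to 7.16). The interval of untreated skin lay above both gel groups, whose intervals overlapped. Among barcodes with at least 1000 UMIs the shares were 3.13% in AN-GelMA, 2.06% in GelMA and 4.80% in untreated skin. Intervals here cover counting error only, not the spread between animals and not bursts of a transcript within 1 cell. The median member held 1006.5 UMIs in AN-GelMA, 872 in GelMA and 933 in untreated skin. Summed over its members, a library gave 418967 UMIs in AN-GelMA, 499654 in GelMA and 450344 in untreated skin, so that 1 UMI was worth 2.39, 2.00 and 2.22 CPM (UMIs scaled to 1000000 per library) in that order. No member barcode was shared between GelMA and either other library, and 2 were shared between AN-GelMA and untreated skin.

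Endothelial genes that the rule did not use were high in the members of every library. Kdr, the main VEGF receptor, stood at 425 CPM in AN-GelMA members, 376 CPM in GelMA members and 446 CPM in untreated members, against 6.79, 3.07 and 7.11 CPM in the other filtered barcodes of the same libraries. Robo4 and Ptprb, an endothelial guidance receptor and a phosphatase of the Tie2 receptor, were over 100 times higher in members than in other barcodes in all 3 libraries. The smallest excess among the 19 measured genes was that of Cldn5, the endothelial tight junction claudin, at 8.87 times the other barcodes in untreated skin. Members just inside the threshold, with 4 gate UMIs, carried 3946 CPM of these genes in AN-GelMA, 2329 CPM in GelMA and 5164 CPM in untreated skin. Barcodes just outside, with 3, carried 2142, 977 and 2227 CPM in the same order, and those with none carried 116, 62.3 and 116 CPM.

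RNA of other cell types among the members was uneven. Hair-forming genes (keratins of the hair shaft and root sheath, 11 measured) summed to 21.5 CPM in AN-GelMA members, 2460 CPM in GelMA members and 75.5 CPM in untreated members. The same genes stood at 78.4, 10202 and 679 CPM in the other filtered barcodes, so the GelMA library as a whole held more hair follicle RNA. Keratinocyte genes summed to 1349, 2240 and 564 CPM and skeletal muscle genes to 317, 785 and 147 CPM in AN-GelMA, GelMA and untreated members. Macrophage genes summed to 962, 358 and 242 CPM, and 1 AN-GelMA cell held 301 of the 403 UMIs. In AN-GelMA members 8 of the 11 hair-forming genes were at 0, and every keratinocyte and macrophage marker was above 0 in all 3 libraries. Members with 10 or more UMIs of other types' markers numbered 16 in AN-GelMA, 56 in GelMA and 11 in untreated skin. List medians without them are given beside the vessel, matrix and fatty acid lists below, and the part of the tissue mixture in other levels was not tested.

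Levels were compared as ratios of summed CPM, over the 8315 genes with at least 30 UMIs in the 3 sums, and a gene was counted as higher or lower when it differed by 1.5 times or more. AN-GelMA over GelMA had 12.7% of these genes higher and 17.4% lower. GelMA over untreated skin had 19.7% higher and 11.3% lower, and AN-GelMA over untreated skin had 13.0% higher and 9.75% lower. The median log2 ratio of all these genes was −0.04, 0.06 and 0.02 in the 3 comparisons. Among genes at least 2 times as high in members as in other barcodes, 19.3% were higher and 15.9% lower in AN-GelMA than in GelMA. Each library enters 2 of the 3 comparisons, so a level that is high or low in GelMA alone appears in both comparisons that use it. Counts of list genes below are to be read beside the shares of all genes. A count near its share is no result about the list.

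Of the 24 measured tip and sprouting genes 14 were higher and 2 lower in AN-GelMA than in GelMA, with a median log2 ratio of 0.65. In GelMA against untreated skin 1 was higher and 13 were lower, with a median of −0.71. In AN-GelMA against untreated skin 4 were higher and 2 lower, with a median of −0.05. The level was thus low in GelMA cells and similar in the other two groups. Without the members that held other types' RNA the 3 medians were 0.58, −0.50 and 0.02.

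Esm1, a proteoglycan secreted by tip cells, had 100 CPM in AN-GelMA (42 UMIs), 4.003 CPM in GelMA (2 UMIs) and 64.4 CPM in untreated skin (29 UMIs). Its log2 ratio was 4.65 in AN-GelMA over GelMA, with a counting interval of 2.70 to 7.74. Angpt2, the Tie2 ligand that loosens vessels for sprouting, had 198 CPM in AN-GelMA, 54.0 CPM in GelMA and 107 CPM in untreated skin. It was the one of these secreted factors whose AN-GelMA level also lay clear of untreated skin, with a log2 ratio of 0.89 (0.36 to 1.44), beside 1.87 (1.23 to 2.56) over GelMA. Apln, the ligand of the apelin receptor, had 127 CPM in AN-GelMA, 38.0 CPM in GelMA and 93.3 CPM in untreated skin. Its receptor Aplnr, known from stalk cells and capillaries, ran the other way in the AN-GelMA library, at 11.9 CPM (5 UMIs) against 42.0 CPM in GelMA and 37.7 CPM in untreated skin. Fscn1, which bundles actin in filopodia, had 184 CPM in AN-GelMA, 64.0 CPM in GelMA and 149 CPM in untreated skin. Pdgfb, which recruits pericytes to sprouts, had 769, 498 and 837 CPM in AN-GelMA, GelMA and untreated skin. In each of these genes but Aplnr the GelMA value was the lowest of the 3.

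**Figure D1:**
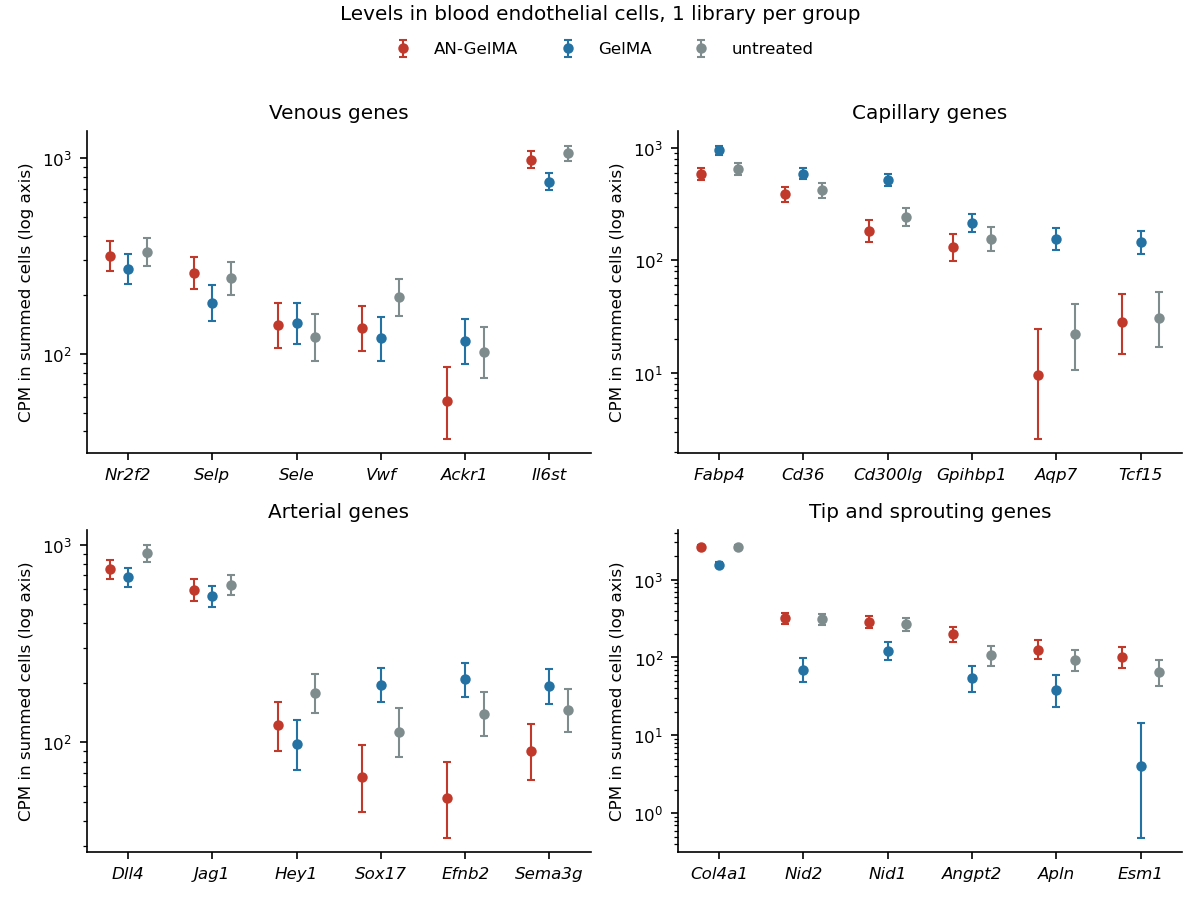
Level of 6 venous, 6 capillary, 6 arterial and 6 tip genes in summed blood endothelial cells (CPM, log axes), for AN-GelMA, GelMA and untreated skin, 1 library each; bars are exact 95% Poisson intervals. Tip genes such as Nid2 and Esm1 are lowest in GelMA and capillary genes such as Aqp7 and Tcf15 highest there, while the venous gene Nr2f2 stays between 272 and 333 CPM.

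Basement membrane genes followed the sprouting genes, with which the list shares Col4a1, Col4a2, Lama4, Lamb1, Nid1 and Nid2. Of 15 measured, 9 were higher and 1 was lower in AN-GelMA than in GelMA (median log2 0.68), 1 was higher and 8 were lower in GelMA than in untreated skin (median −0.63), and none passed 1.5 times in either direction between AN-GelMA and untreated skin (median 0.12). Col4a1, a chain of the collagen IV network, had 2623 CPM in AN-GelMA, 1545 CPM in GelMA and 2654 CPM in untreated skin. Nid2, which links laminin to collagen IV, had 317, 70.0 and 311 CPM and its relative Nid1 had 289, 122 and 266 CPM in the same order. AN-GelMA and untreated skin were within 10 CPM of each other for Nid2, and both were over 4 times GelMA. Fn1, the fibronectin of provisional matrix, had 380 CPM in AN-GelMA, 150 CPM in GelMA and 313 CPM in untreated skin, and Col15a1 had 582, 244 and 493 CPM. Lamc1, the laminin γ1 chain, had 738, 366 and 568 CPM. Lamb2, the laminin β2 chain of mature basement membranes, was the gene that differed the other way, with 141 CPM in AN-GelMA, 250 CPM in GelMA and 138 CPM in untreated skin. Without the members that held other types' RNA the list's medians were 0.54 in AN-GelMA over GelMA and −0.45 in GelMA over untreated skin.

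Matrix proteases and their inhibitors had 11 of 17 measured genes higher and 2 lower in AN-GelMA than in GelMA, with a median log2 ratio of 0.79. Part of this sum came from 1 AN-GelMA cell, the top cell of Plau (56 of 101 UMIs), Ctsb (56 of 110) and Ctsl (61 of 78), and with each gene's top cell left out the median was 0.44. It was 0.45 without the members that held other types' RNA, and 0.21 when each cell's share counted equally. These 3 genes are therefore given no ratio. Adamts9 and Adamts1, secreted proteases of proteoglycans, did not rest on 1 cell. Adamts9 had 1267 CPM in AN-GelMA, 670 CPM in GelMA and 1259 CPM in untreated skin. Adamts1 had 644, 282 and 371 CPM, so AN-GelMA exceeded untreated skin too, by 0.80 on the log2 scale (0.51 to 1.08). Mmp2, the gelatinase A that degrades denatured collagen, had 172, 84.1 and 149 CPM in AN-GelMA, GelMA and untreated skin. Timp3, a tissue inhibitor of metalloproteinases, had 23.9 CPM in AN-GelMA (10 UMIs), 74.1 CPM in GelMA and 35.5 CPM in untreated skin.

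Capillary genes ran in the opposite direction. In AN-GelMA against GelMA 2 of 16 measured genes were higher and 10 lower (median log2 −0.71), and in GelMA against untreated skin 5 were higher and 1 was lower (median 0.46). Between AN-GelMA and untreated skin 2 were higher and 2 lower (median −0.11). Aqp7, a channel for water and glycerol, had 9.55 CPM in AN-GelMA (4 UMIs), 156 CPM in GelMA (78 UMIs) and 22.2 CPM in untreated skin (10 UMIs). Tcf15, a transcription factor that drives fatty acid uptake genes with Meox2 in mouse heart capillaries, had 28.6, 146 and 31.1 CPM. Cd300lg, a surface glycoprotein of capillary endothelium, had 184, 522 and 244 CPM. All 3 were highest in GelMA and had their lowest value in AN-GelMA.

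Fabp4, the fatty acid carrier of capillary and fat cells, had 587 CPM in AN-GelMA, 957 CPM in GelMA and 651 CPM in untreated skin, and Cd36, the fatty acid translocase, had 389, 590 and 420 CPM. Gpihbp1, which anchors lipoprotein lipase to the vessel wall, had 131, 216 and 155 CPM. Not every gene of the list followed this order. Emcn, a sialomucin of capillaries and veins, had 401 CPM in AN-GelMA, 266 CPM in GelMA and 382 CPM in untreated skin. Meox1 had 93.1, 28.02 and 75.5 CPM and its relative Meox2 298, 370 and 284 CPM in AN-GelMA, GelMA and untreated skin, so the 2 homeobox genes differed in opposite directions.

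The wider list of fatty acid uptake and caveolae, which shares Cd36, Fabp4, Gpihbp1 and Lpl with the capillary list, had none of 14 measured genes higher and 11 lower in AN-GelMA than in GelMA (median log2 −1.03). In GelMA over untreated skin 7 were higher and none lower (median 0.59), and in AN-GelMA over untreated skin 1 was higher and 4 were lower (median −0.17). Pltp, the phospholipid transfer protein, had 69.2 CPM in AN-GelMA, 222 CPM in GelMA and 144 CPM in untreated skin. Cav2, a partner of caveolin 1 in caveolae, had 50.1, 170 and 86.6 CPM in that order. Cav1 itself, the structural caveolin, had 1680, 1321 and 1594 CPM and did not follow Cav2. Adipocyte markers summed to 43.0 CPM in AN-GelMA members, 178 CPM in GelMA members and 62.2 CPM in untreated members, so RNA of fat cells was also highest in GelMA. Without the members that held other types' RNA the fatty acid list's median was −0.92 in AN-GelMA over GelMA, and the capillary list's was −0.90. In GelMA over untreated skin these medians were 0.78 for the fatty acid list and 0.75 for the capillary list.

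Between AN-GelMA and GelMA the capillary list's median difference was larger in shallow cells, and that of the tip list was larger in deep cells. Cells with at least 1000 UMIs numbered 178 in AN-GelMA, 170 in GelMA and 174 in untreated skin, and shallower cells numbered 168, 276 and 219. In AN-GelMA over GelMA the median of the capillary list was −1.24 in shallow cells and −0.11 in deep ones, while the median of the tip list was 0.33 in shallow cells and 0.85 in deep ones. The fatty acid list's median was −0.99 in shallow cells and −0.50 in deep ones. Cd36 had 459 CPM in AN-GelMA, 963 CPM in GelMA and 606 CPM in untreated skin among shallow cells, but 360, 343 and 317 CPM among deep cells, where it did not differ by 1.5 times. Gpihbp1 likewise had 148 CPM in AN-GelMA, 130 CPM in GelMA and 148 CPM in untreated skin among deep cells. Fabp4 had 852, 1596 and 937 CPM in shallow cells of AN-GelMA, GelMA and untreated skin, but 478, 533 and 493 CPM in deep ones. Rgcc had 164, 341 and 219 CPM in shallow cells and 175, 193 and 169 CPM in deep ones. Aqp7 kept its order in deep cells, with 1 UMI in AN-GelMA, 24 in GelMA and 4 in untreated skin, and so did Cd300lg, with 178, 270 and 193 CPM. Nid2 was lowest in GelMA in both bands, at 246, 25.1 and 250 CPM in shallow cells and 347, 99.9 and 345 CPM in deep cells of AN-GelMA, GelMA and untreated skin. Depth thus moves with the capillary result for Cd36 and Gpihbp1, and whether depth follows vessel type, cell state or capture was not tested.

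**Figure D2:**
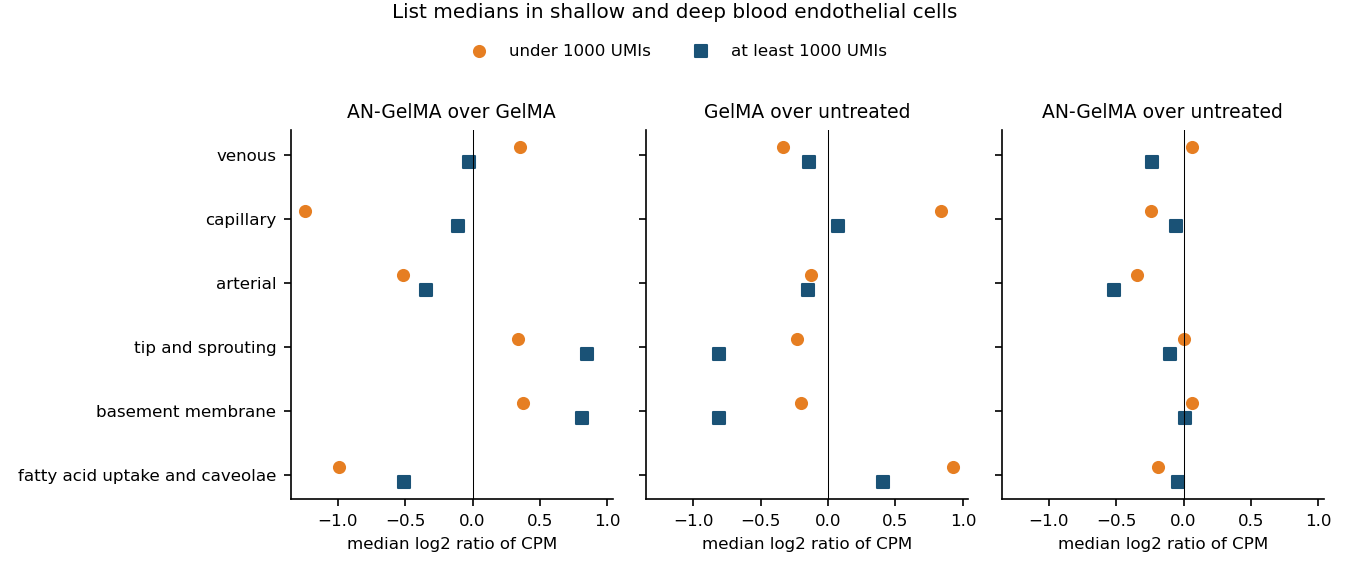
Median log2 ratio of CPM of 6 gene lists in the 3 comparisons, in cells with under 1000 UMIs (circles) and with at least 1000 UMIs (squares). In AN-GelMA over GelMA the capillary median is −1.24 in shallow and −0.11 in deep cells, while the tip and basement membrane medians are larger in deep cells.

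Arterial genes did not differ as a group between AN-GelMA and GelMA in 1 direction. Of 19 measured, 2 were higher and 8 lower in AN-GelMA than in GelMA (median log2 −0.16), and none were higher and 6 lower than in untreated skin (median −0.41). GelMA against untreated skin had 4 higher and 4 lower (median −0.21). The AN-GelMA over GelMA median was unstable, at −0.43 without the members that held other types' RNA, −0.48 without each gene's top cell, −0.46 when each cell's share counted equally, 0.05 over genes with at least 100 UMIs and 0.15 with cells thinned to 600 UMIs. The arterial median of GelMA over untreated skin was −0.07 without the members that held other types' RNA. Efnb2, the ligand that sets arterial identity against venous Ephb4, had 52.5 CPM in AN-GelMA (22 UMIs), 208 CPM in GelMA (104 UMIs) and 140 CPM in untreated skin (63 UMIs). Its log2 ratio was −1.99 (−2.72 to −1.31) over GelMA and −1.41 (−2.18 to −0.69) over untreated skin. With cells thinned to 600 UMIs, Efnb2 was found in 3.26% of AN-GelMA members, 9.42% of GelMA members and 7.87% of untreated members. Keratinocytes, taken as barcodes with at least 8 UMIs of Krt14 and Krt5 and none of the endothelial gate genes or Ptprc, also carried it. Thinned alike, they did so in 6.83%, 10.3% and 7.09% in the same order. The part of keratinocyte RNA in the Efnb2 level was not tested. Sox17, a transcription factor of arterial fate, had 66.8 CPM in AN-GelMA, 196 CPM in GelMA and 113 CPM in untreated skin, and Sema3g, a semaphorin of arterial endothelium, had 90.7, 192 and 147 CPM. Gja5, the arterial gap junction protein connexin 40, had 11.9, 46.0 and 26.6 CPM on 5, 23 and 12 UMIs. These 4 genes were lowest in AN-GelMA and highest in GelMA, an order that other arterial genes did not all share. Hey1 had 139, 120 and 187 CPM in shallow cells of AN-GelMA, GelMA and untreated skin, and 114, 83.2 and 172 CPM in deep ones. Gja4 and Bmx were highest in untreated skin among deep cells. Among shallow cells Gja4 was highest in GelMA and Bmx in AN-GelMA. Hey2, on few UMIs, had the order of those 4 genes in both bands. The Notch ligands Dll4, with 752, 684 and 908 CPM, and Jag1, with 592, 548 and 626 CPM in AN-GelMA, GelMA and untreated skin, did not differ by 1.5 times in any comparison. Igfbp3 and Edn1 were the list's 2 genes higher in AN-GelMA than in GelMA. Igfbp3, a binding protein of insulin-like growth factors, had 434, 126 and 593 CPM, and Edn1, the vasoconstrictor endothelin 1, had 570, 280 and 491 CPM in AN-GelMA, GelMA and untreated skin.

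Venous genes differed little as a list, with median log2 ratios of 0.07 in AN-GelMA over GelMA, −0.11 for GelMA and −0.08 for AN-GelMA when each was set over untreated skin. Of 12 measured, none were higher and 2 lower in AN-GelMA than in GelMA. Without the members that held other types' RNA the first 2 medians were −0.0019 and 0.08. Nr2f2, the nuclear receptor that sets venous identity, had 317 CPM in AN-GelMA, 272 CPM in GelMA and 333 CPM in untreated skin. Selp, the P-selectin that tethers leukocytes, had 260, 182 and 244 CPM, and Sele, the E-selectin, had 141, 144 and 122 CPM. Ackr1, the chemokine-binding receptor of venules, was the lowest in AN-GelMA, with 57.3 CPM (24 UMIs) against 116 CPM in GelMA (58 UMIs) and 102 CPM in untreated skin (46 UMIs). Vwf, the von Willebrand factor, had 136, 120 and 195 CPM in AN-GelMA, GelMA and untreated skin, and it was lower in GelMA than in untreated skin by a log2 ratio of −0.70 (−1.20 to −0.21). Ephb4, the venous receptor of Efnb2, had 477 CPM in AN-GelMA, 700 CPM in GelMA and 728 CPM in untreated skin.

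**Figure D3:**
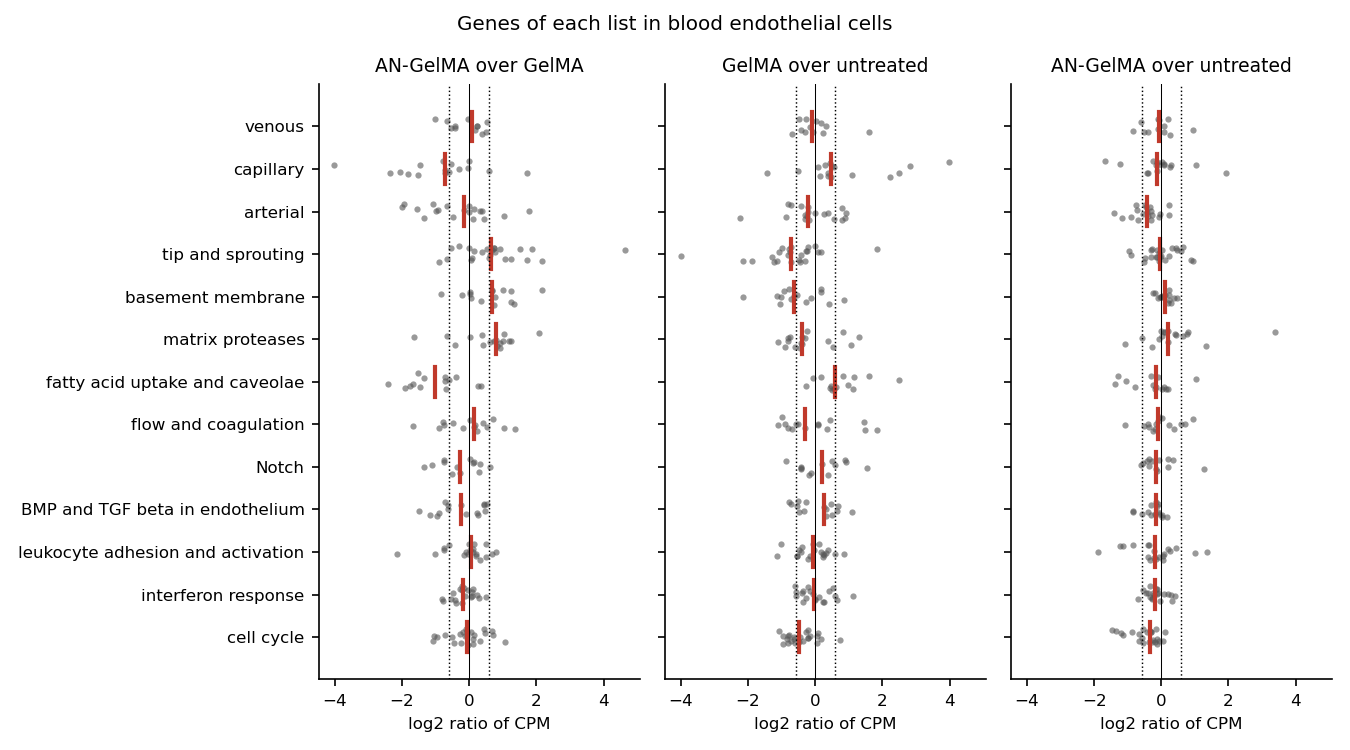
Log2 ratio of CPM for each measured gene of 13 lists (grey points) with the list median (red bar), in 3 panels, AN-GelMA over GelMA at the left and then each gel group over untreated skin, the empty gel in the middle; dotted lines mark 1.5 times either way. Tip, basement membrane and protease genes lie mostly right of 0 in the first panel and capillary and fatty acid genes mostly left, while in the third panel the tip, basement membrane and fatty acid medians lie nearer to 0 and the arterial median lies further from it, at −0.41.

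The flow-responsive transcription factors were highest in GelMA. Klf2 had 193 CPM in AN-GelMA (81 UMIs), 620 CPM in GelMA (310 UMIs) and 229 CPM in untreated skin (103 UMIs). Its log2 ratio was −1.68 (−2.05 to −1.33) in AN-GelMA over GelMA and 1.44 (1.11 to 1.78) in GelMA over untreated skin. Klf4 had 174, 300 and 107 CPM in AN-GelMA, GelMA and untreated skin, so AN-GelMA exceeded untreated skin as well, by 0.71 (0.16 to 1.27). Keratinocytes also carried Klf4, as given with the marks below, and the part of their RNA in its level was not tested. Sox18, a partner of Sox17 in vessel formation, had 100, 316 and 198 CPM. Endothelial transcription factors as a list had 1 of 19 genes higher and 7 lower in AN-GelMA than in GelMA (median −0.19). The flow and coagulation list, of which Klf2 and Klf4 are members, had 3 of 15 higher and 4 lower in the same comparison (median 0.15). In GelMA over untreated skin 3 of its genes were higher and 5 lower (median −0.30), so the list as a whole was not raised in GelMA. Immediate early genes, which handling of tissue can induce, had 3 of 14 measured higher and 1 lower in AN-GelMA than in GelMA, and 5 higher and 1 lower in either gel group than in untreated skin. Beside the lists of this paragraph, 12.7% of all genes were higher and 17.4% lower in AN-GelMA than in GelMA. Against untreated skin the shares were 19.7% and 11.3% for GelMA and 13.0% and 9.75% for AN-GelMA. Jun had 115 CPM in AN-GelMA, 88.1 CPM in GelMA and 26.6 CPM in untreated skin, and Fos had 90.7, 88.1 and 35.5 CPM. Atf3, another early gene, was lowest in GelMA, with 110 CPM in AN-GelMA (46 UMIs, 18 in 1 cell), 22.02 CPM in GelMA (11 UMIs) and 124 CPM in untreated skin (56 UMIs, 19 in 1 cell).

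Receptors of VEGF and angiopoietin differed little. Kdr, given above, stayed within 1.5 times in each comparison. Flt1, the VEGF decoy receptor, had 427 CPM in AN-GelMA, 558 CPM in GelMA and 600 CPM in untreated skin, and Tek, the Tie2 receptor of Angpt2, had 518, 422 and 551 CPM. Tie1, which modulates Tie2, had 186, 286 and 233 CPM, a log2 ratio of −0.62 (−1.04 to −0.21) in AN-GelMA over GelMA. Vegfa itself had 71.6, 114 and 115 CPM in the endothelial cells of AN-GelMA, GelMA and untreated skin. Of the 20 measured genes of VEGF, Tie and apelin signalling, 4 were higher and 5 lower in AN-GelMA than in GelMA, 3 were higher and 5 lower in GelMA than in untreated skin, and 3 were higher and 4 lower in AN-GelMA than in untreated skin. The shares of all genes higher and lower were 12.7% and 17.4%, 19.7% and 11.3%, and 13.0% and 9.75% in these comparisons. Counts of lower genes in the list lay above the matching shares. Plxnd1, the semaphorin receptor of sprouting endothelium, was among the genes higher in AN-GelMA than in GelMA, with 1306 CPM in AN-GelMA, 765 CPM in GelMA and 1192 CPM in untreated skin.

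Notch genes had 1 of 13 measured higher and 4 lower in AN-GelMA than in GelMA, and 4 higher and 1 lower in GelMA than in untreated skin. Over all genes the higher and lower shares were 12.7% and 17.4% in the first comparison and 19.7% and 11.3% in the second. Jag2 and Dll1, both ligands, had 100 and 196 CPM in AN-GelMA, 214 and 330 CPM in GelMA, and 151 and 218 CPM in untreated skin. Of the 15 measured genes of BMP and TGF beta signalling none were higher and 7 lower in AN-GelMA than in GelMA (median log2 −0.24). Id1 and Id3, the direct targets of BMP9 signalling in endothelium, had 389 and 461 CPM in AN-GelMA, 642 and 853 CPM in GelMA, and 511 and 679 CPM in untreated skin. The inhibitory Smad7 had 90.7 CPM in AN-GelMA, 176 CPM in GelMA and 111 CPM in untreated skin. The receptors did not share the difference, since Acvrl1 had 260, 306 and 258 CPM and Eng 1036, 873 and 1101 CPM in the same order.

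Genes by which endothelium acts on other cells split by member. Of 21 measured angiocrine ligands 9 were higher and 6 lower in AN-GelMA than in GelMA. Ccn1 and Ccn2, matricellular proteins induced by mechanical stretch, had 1933 and 878 CPM in AN-GelMA, 935 and 362 CPM in GelMA, and 1033 and 633 CPM in untreated skin. Ccn1 in AN-GelMA exceeded both others, by log2 ratios of 1.05 (0.88 to 1.22) over GelMA and 0.90 (0.74 to 1.07) over untreated skin. Cxcl12, the chemokine that retains and guides CXCR4-bearing cells, was the lowest there, with 363 CPM in AN-GelMA, 604 CPM in GelMA and 797 CPM in untreated skin. Leukocyte adhesion and activation genes had 2 of 20 measured higher and 5 lower in AN-GelMA than in GelMA, and 2 higher and 4 lower than in untreated skin. Over all genes the higher and lower shares were 12.7% and 17.4% in the first comparison and 13.0% and 9.75% in the second. Vcam1, a ligand of leukocyte integrins, had 52.5 CPM in AN-GelMA (22 UMIs), 56.0 CPM in GelMA (28 UMIs) and 122 CPM in untreated skin (55 UMIs, 13 of them in 1 cell). Icam1, another such ligand, had 43.0, 42.0 and 35.5 CPM on 18, 21 and 16 UMIs, too few to show a difference of 1.5 times.

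Cell cycle genes had 3 of 24 measured higher and 4 lower in AN-GelMA than in GelMA (median log2 −0.05). In GelMA over untreated skin 1 was higher and 11 were lower (median −0.47), and in AN-GelMA over untreated skin none were higher and 8 lower (median −0.34). Summed, the list's genes had 1613 CPM in AN-GelMA, 1605 CPM in GelMA and 2205 CPM in untreated skin. Tpx2, a spindle assembly factor, had 81.2 CPM in AN-GelMA, 84.1 CPM in GelMA and 178 CPM in untreated skin. Top2a, the topoisomerase of dividing cells, had 263, 240 and 329 CPM. After each cell was thinned to 600 UMIs, at least 1 UMI of 8 mitotic genes was found in 21.8% of AN-GelMA cells, 13.9% of GelMA cells and 21.0% of untreated cells (25.4%, 16.4% and 23.2% unthinned), against 17.4%, 14.5% and 13.4% of keratinocytes. This order differs from that of the summed level, so no order is read from it.

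Outside the lists, genes were named by a fixed rule of size among those with at least 50 UMIs in the 2 libraries and at least 2 times the level of other barcodes. In AN-GelMA over GelMA 140 of 854 such genes were higher and 99 lower with a counting interval that excluded no difference. Col13a1, a transmembrane collagen of cell contacts, led the higher ones, with 282 CPM in AN-GelMA, 40.0 CPM in GelMA and 107 CPM in untreated skin, a log2 ratio of 2.81 (2.12 to 3.58). It was followed by Nid2, Hcls1, Ppm1j, Angpt2, Vash1, Igfbp3, Rundc3a, Adamts7 and Apln. Vash1, the angiogenesis inhibitor vasohibin that endothelium makes in response to VEGF, had 158 CPM in AN-GelMA, 44.0 CPM in GelMA and 131 CPM in untreated skin. Aqp7 led the lower ones, followed by Slc26a10, Slc28a2, Tcf15, Ablim3, Fmo2, Cav2, Klf2, Sox18 and Tbx3. Slc28a2, a nucleoside transporter, had 21.5 CPM in AN-GelMA (9 UMIs), 118 CPM in GelMA (59 UMIs) and 8.88 CPM in untreated skin (4 UMIs). Ablim3, an actin-binding protein, had 57.3, 254 and 66.6 CPM in the same order.

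In GelMA over untreated skin 69 of 876 such genes were higher and 171 lower. The 10 highest ratios were those of Slc28a2, Slc26a10, Aqp7, Tcf15, Tnfsf13, Ablim3, Rasgrp2, Ccdc85a, Klf2 and Stard8. The 10 lowest were those of Igfbp3, Art5, Nid2, Rgs16, Depp1, Ppm1j, Rundc3a, Zfp423, Gem and Cd276. Rgs16, which shortens G protein signals, had 52.0 CPM in GelMA and 207 CPM in untreated skin, and Depp1, a target of FOXO factors, had 44.0 CPM in GelMA and 158 CPM in untreated skin.

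In AN-GelMA over untreated skin 22 of 851 such genes were higher and 53 lower. Hecw2 led the higher ones, with 150 CPM in AN-GelMA (63 UMIs, 12 in 1 cell) and 55.5 CPM in untreated skin (25 UMIs). It was followed by Col13a1, Akap12, Nr4a1, Ppp1r14a, Atp2a3, Ift122, Ccn1, Angpt2 and Prdm11. Nr4a1, an early nuclear receptor that VEGF induces in endothelium, had 253 CPM in AN-GelMA and 111 CPM in untreated skin, a log2 ratio of 1.19 (0.69 to 1.70). Its 106 UMIs in AN-GelMA lay in 35 cells, 18 of them in 1 cell, and its 50 UMIs in untreated skin lay in 29 cells. Glul, the glutamine synthetase, led the lower ones with 64.4 CPM in AN-GelMA against 209 CPM in untreated skin, followed by Tbx3, Cyp4b1, Vcam1, Atp13a3, Cxcl12, Art5, Myo10, Sptbn5 and Gkap1. Glul lay between these values in GelMA, at 116 CPM.

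Single cells were then marked by a UMI of a short gene set, after each cell was thinned to 600 UMIs, which left 307 cells in AN-GelMA, 382 in GelMA and 343 in untreated skin. These marks are ranges cut from sparse counts, not cell types, and one cell can carry several. A tip mark (Esm1, Apln, Angpt2 or Nid2) was found in 26.1% of AN-GelMA cells (exact 95% binomial interval 21.2 to 31.3), 7.33% of GelMA cells (4.93 to 10.4) and 21.3% of untreated cells (17.1 to 26.0). Without thinning it was found in 33.5%, 10.1% and 30.03%. Keratinocytes of the same libraries, thinned alike, carried it in 0.44%, 0.23% and 0.61%. Barcodes with any endothelial gate UMI had been left out of the keratinocytes. Keratinocyte shares of endothelial genes, here and below, may thus understate free RNA. GelMA lay below the other groups beyond the counting intervals, and AN-GelMA and untreated skin overlapped. All 4 genes of the mark had their lowest CPM in GelMA, as given above, so this share restates those levels. Dll4, on the tip list but outside the mark, showed no such drop. It was found in 27.7% of thinned AN-GelMA cells, 25.9% of GelMA cells and 30.03% of untreated cells. Col4a1, also on that list, was lowest in GelMA, at 59.3%, 43.98% and 59.8% in the same order.

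A capillary mark (Cd36, Rgcc, Gpihbp1, Cd300lg, Fabp4 or Tcf15) was found in 47.9% of AN-GelMA cells, 58.6% of GelMA cells and 48.4% of untreated cells (62.1%, 70.2% and 66.7% unthinned), against 4.96%, 5.13% and 5.47% of keratinocytes. An arterial mark was found in 21.2% of AN-GelMA cells, 31.9% of GelMA cells and 25.9% of untreated cells (26.9%, 40.8% and 34.1% unthinned), but keratinocytes, which also express Efnb2, carried it in 7.71%, 10.7% and 7.09%. A venous mark was found in 31.3%, 25.7% and 32.1% of cells in that order (42.2%, 33.4% and 39.9% unthinned), against 0.11%, 0.38% and 0.41% of keratinocytes. Klf2 alone marked 9.12% of AN-GelMA cells, 23.8% of GelMA cells and 9.91% of untreated cells (11.3%, 31.8% and 15.0% unthinned), against 0.44%, 0.23% and 0.61% of keratinocytes. Klf4 alone marked 7.17%, 13.4% and 4.96% of cells, but keratinocytes carried it in 9.03%, 14.3% and 10.7%.

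Marks shared cells unevenly. An arterial mark was present in 8.33% of venous-marked cells in AN-GelMA, 19.4% in GelMA and 12.7% in untreated skin, against 27.0%, 36.3% and 32.2% of cells without a venous mark. A venous mark was present in 8.75% of tip-marked cells in AN-GelMA and 39.2% of cells without a tip mark there, in 21.4% and 26.0% in GelMA, and in 19.2% and 35.6% in untreated skin. In all 3 libraries the share with an arterial mark was lower in venous-marked cells than in the others, while in GelMA the tip value rests on 28 cells and its difference is within counting error.

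**Figure D4:**
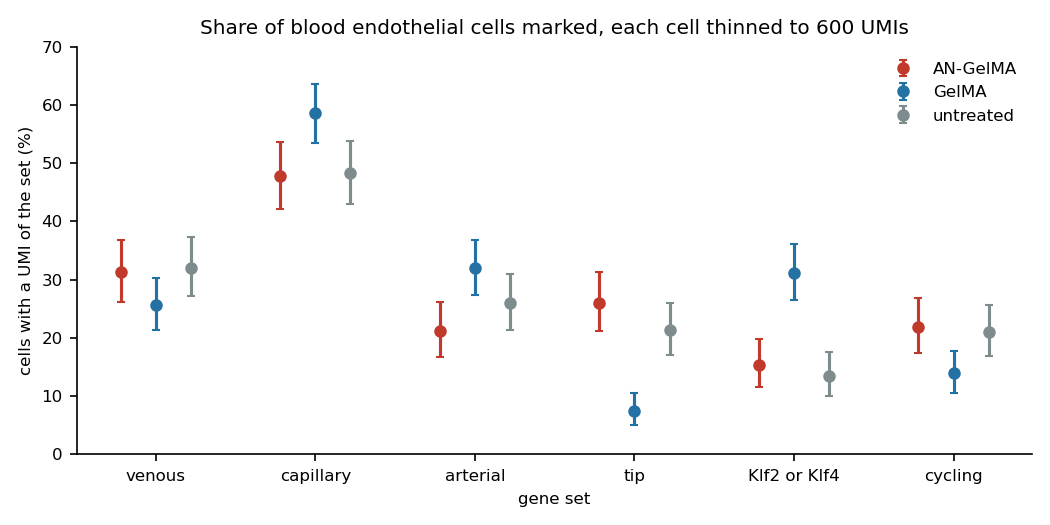
Share of blood endothelial cells with at least 1 UMI of a gene set after thinning to 600 UMIs (%), for AN-GelMA, GelMA and untreated skin; bars are exact 95% binomial intervals. The tip share is 26.1%, 7.33% and 21.3%, and the Klf2 or Klf4 share is 15.3%, 31.2% and 13.4%. Keratinocytes, not drawn, carried the Klf2 or Klf4 set in 9.36%, 14.5% and 11.3%.

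The following describes genes that went with the marks, under a rule of size set after the marks had been counted, and no test is attached. For this, cells were marked on their full counts, without thinning. Tip-marked cells then numbered 116 in AN-GelMA, 45 in GelMA and 118 in untreated skin. Their median depth was 1198, 1379 and 1230 UMIs, against 907.5, 839 and 843 UMIs in unmarked cells. The part of depth in the differences below was not tested. Prnd, a prion-like protein of angiogenic endothelium, differed most in favour of tip-marked cells. It had 1918 CPM in tip-marked AN-GelMA cells, 2098 CPM in tip-marked GelMA cells and 2311 CPM in tip-marked untreated cells, against 541, 208 and 728 CPM in the unmarked cells of those libraries. Igfbp3 had 778, 428 and 1211 CPM in tip-marked cells of AN-GelMA, GelMA and untreated skin, against 209, 74.9 and 218 CPM in unmarked cells. Col13a1, Rgs16, Adamts7 and Cd276 were also among the genes that differed most in favour of tip-marked cells. Eln, the elastin of larger vessel walls, was the lowest, with 54.3, 69.0 and 64.7 CPM in tip-marked cells and 593, 875 and 571 CPM in unmarked ones. Prnd was thus as high in the few tip-marked cells of GelMA as elsewhere, while over all members it had 1086 CPM in AN-GelMA, 482 CPM in GelMA and 1326 CPM in untreated skin. Cells marked by Klf2 or Klf4 had more Gja4, Sox17 and Sema3g and less Angpt2 than the others in each library. Angpt2 had 37.3 CPM in Klf-marked and 253 CPM in other cells of AN-GelMA, 34.0 and 71.8 CPM in GelMA, and 17.3 and 138 CPM in untreated skin.

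Levels of genes outside the marking sets were then read inside cells marked the same way, without thinning. Klf2 was highest in GelMA within every set. In venous-marked cells it had 275 CPM in AN-GelMA, 800 CPM in GelMA and 280 CPM in untreated skin, in capillary-marked cells 175, 566 and 211 CPM, and in tip-marked cells 90.5, 442 and 253 CPM. Col4a1 had its lowest value in GelMA in capillary-marked cells, with 2715 CPM in AN-GelMA, 1758 CPM in GelMA and 2647 CPM in untreated skin, and in tip-marked cells, with 3552, 2636 and 3398 CPM. In venous-marked cells it had 1661, 1570 and 1865 CPM and did not differ by 1.5 times. Cells without a tip mark had 2015 CPM of Col4a1 in AN-GelMA, 1360 CPM in GelMA and 2202 CPM in untreated skin. Between AN-GelMA and GelMA the Col4a1 level of tip-marked cells and that of cells without a tip mark both differed by less than 1.5 times too. Aqp7 was highest in capillary-marked GelMA cells, at 218 CPM, against 14.9 CPM in AN-GelMA and 25.1 CPM in untreated skin, and in venous-marked cells it had 0 UMIs in AN-GelMA, 6 in GelMA and 4 in untreated skin.

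**Figure D5:**
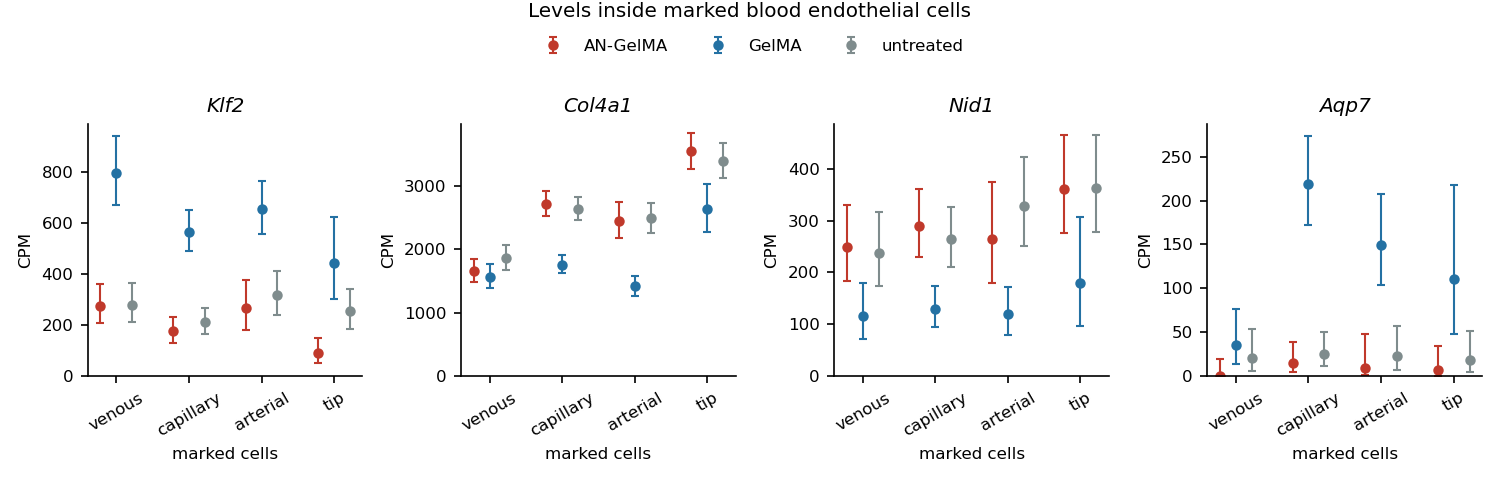
CPM of Klf2, Col4a1, Nid1 and Aqp7 inside venous-, capillary-, arterial- and tip-marked blood endothelial cells of AN-GelMA, GelMA and untreated skin, 1 library each. Cells were marked without thinning, and bars are exact 95% Poisson intervals. Klf2 is highest in GelMA in all 4 sets, while Col4a1 in venous-marked cells lies between 1570 and 1865 CPM in all 3 groups.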

How the data were processed

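The submitters' processing notes name GRCm39 (mm39), and Cell Ranger 10.0.0 wrote the matrices per the file headers. The deposited files hold raw UMI counts per probe-set gene and cell barcode, unnormalized by the authors. The files of the AN-GelMA library also carry the word heat, which no source used here explains; its group follows the labels. The members and gene lists were chosen with earlier results of these data known.

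Counts of the member cells were summed by library and divided by the library's summed UMIs (CPM). With 1 library per group no test was run. Shares have exact Clopper-Pearson 95% intervals, levels exact Poisson intervals, and ratios exact conditional binomial intervals, checked on simulated counts. Genes with at least 30 UMIs over the 3 sums were compared. Named genes were the 10 highest and 10 lowest ratios per comparison, with at least 50 UMIs, 2 times the level of other barcodes, a ratio of 1.5 and an interval excluding no difference, beside list members. Genes that went with a mark were ranked by the mean log2 difference over libraries, with 10 CPM added, among genes with at least 100 UMIs. No doublet caller was run; the gate and an alternative without the 5% of members with most UMIs stand in. Across all barcodes, 135 sequences were shared between AN-GelMA and GelMA, 94 between AN-GelMA and untreated skin and 107 between GelMA and untreated skin. Notch4, Cd99, Nos3 and Mmrn2 were not analysed here. Python 3.11.15, NumPy 2.4.6, SciPy 1.17.1, pandas 2.3.3 and matplotlib 3.10.9 were used.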

Additional observations from a re-analysis of the deposited data

How the results depend on the processing

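No paired analysis was possible because there is 1 library in each group. The 60 ratios of genes named by the rule of size kept their direction under all 10 alternatives, and 58 of them stayed past 1.5 times both with cells thinned to 600 UMIs and without the 5% of members with most UMIs. These genes were picked for large ratios, and the alternatives reuse the same 3 libraries. A kept direction was therefore likely beforehand and is no independent check. Outside the ratios for which a gene was named, thinning turned Gem to −0.0066 and Hecw2 to −0.54 in AN-GelMA over GelMA and Prdm11 to 0.43 in GelMA over untreated skin. With at least 1000 UMIs per cell, AN-GelMA over GelMA gave 0.064 for the capillary median over the genes that still had 30 UMIs there (−0.11 over all 16), 0.071 for Cd36 and 0.19 for Gpihbp1, and the capillary median of GelMA over untreated skin was 0.042. The arterial median of AN-GelMA over untreated skin was −0.22 without the 5% of members with most UMIs and −0.16 with thinned cells. The endothelial share of AN-GelMA, GelMA and untreated skin was 3.11%, 3.41% and 5.55% with at least 6 gate UMIs, 2.74%, 3.04% and 5.07% with no UMI of Ptprc, Col1a1 or Krt14, and 3.13%, 2.06% and 4.80% with at least 1000 UMIs; without members holding other types' RNA it was 3.45% in GelMA. Untreated skin had the highest share throughout. Among genes with at least 100 UMIs, 9.57% were lower in AN-GelMA than in GelMA, 9.90% were higher in GelMA than in untreated skin, and 5.77% were higher and 4.90% lower in AN-GelMA than in untreated skin. With genes from 3 UMIs on, the last 2 were 19.8% and 16.1%. Among genes at 2 times other barcodes or more, 19.3% were higher in AN-GelMA than in GelMA, 11.9% were higher and 21.4% lower in GelMA than in untreated skin, and 6.67% were higher in AN-GelMA than in untreated skin. The shares fall as the count minimum rises, so counting noise enters the shares of all genes. The cause of the other shifts was not tested. Depth limits genes under 30 UMIs, which were not compared.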

Other observations

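Junction genes had none of 13 measured higher and 3 lower in AN-GelMA than in GelMA, and 3 higher and none lower in GelMA than in untreated skin. Over all genes the higher and lower shares were 12.7% and 17.4% in the first comparison and 19.7% and 11.3% in the second. Cldn5, the tight junction claudin of endothelium, had 11.9 CPM in AN-GelMA (5 UMIs), 70.0 CPM in GelMA (35 UMIs) and 20.0 CPM in untreated skin (9 UMIs). Jam2, a junctional adhesion molecule, had 360, 550 and 420 CPM in the same order. Among 11 endothelial integrins, Itga1, a collagen-binding chain, had 160 CPM in AN-GelMA, 340 CPM in GelMA and 149 CPM in untreated skin, and 2 integrins were higher and 1 lower in AN-GelMA than in GelMA.

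Interferon response genes had none of 20 measured higher and 2 lower in AN-GelMA than in GelMA (median log2 −0.18), and none higher and 1 lower than in untreated skin (median −0.19). MHC class I genes had 1 of 12 higher and 2 lower in AN-GelMA than in GelMA (median −0.08). Hypoxia and glycolysis genes had 4 of 18 higher and 3 lower in that comparison (median 0.09). Heat shock genes had 6 of 13 with a probe under 30 UMIs, and of the 7 measured none were higher and 3 lower (median −0.45). MHC class II genes had 3 of 7 measured. Beside these lists, 12.7% of all genes were higher and 17.4% lower in AN-GelMA than in GelMA. Against untreated skin 13.0% were higher and 9.75% lower in AN-GelMA.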
